A study of Mus musculus with 36 samples.

Results

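Glutathione, peroxiredoxins and thioredoxins are the main thiol systems with which cells detoxify peroxides and reactive chemicals, and 61 of the 19909 genes in the deposited expression table belong to them or to the enzymes that work beside them. Members were chosen by gene name, under a rule set with earlier results of these data known. They are the cytosolic and mitochondrial glutathione S-transferases, glutathione peroxidases, peroxiredoxins, thioredoxins with their reductases, thioredoxin-domain proteins and the inhibitor Txnip. Gclc, Gclm, Gss and Gsr of glutathione synthesis and reduction were included too. So were the superoxide dismutases Sod1, Sod2 and Sod3, catalase (Cat), Nqo1, Hmox1 and Hmox2. Of the 61 members, 57 have a complete coding sequence in the annotation and 4 are pseudogenes. By role they fell into 18 transferases, 5 glutathione peroxidases, 4 genes of glutathione synthesis and reduction, 7 peroxiredoxins, 5 thioredoxins and reductases, 10 thioredoxin-domain proteins, Txnip, 4 superoxide dismutase and catalase genes, 3 genes for Nqo1 and the haem oxygenases, and the 4 pseudogenes.

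The study compared cells of the mouse subependymal zone (SEZ), the neurogenic niche beside the lateral ventricles of the adult brain. All 36 libraries came from C57BL/6 mice aged 8 weeks, with no genetic change named in the labels. Freshly sorted cells made up 28 libraries from 8 populations: qNSC, pNSC, aNSC and NPC1 (4 libraries each) and NPC2, NB1, NB2 and Other (3 each), names that the labels do not spell out. In common usage of this field, qNSC and aNSC are quiescent and activated neural stem cells, NPC are progenitors and NB are neuroblasts. The remaining 8 libraries came from neurospheres, which are floating cultures of SEZ cells kept in EGF and FGF, at passage 4: the cells were loaded with 2 ug/ml of the dye DFFDA, grown for 4 days and sorted into DFFDA_H and DFFDA_L (4 libraries each). Such a dye is thinned out at each division, so a high-dye cell has divided less. The level of Mki67, a gene of dividing cells, was 3.68 ± 0.29 (log2, SD, n = 4) in DFFDA_H and 6.09 ± 0.27 in DFFDA_L, and 2.81 ± 0.59 in qNSC against 8.03 ± 0.08 in aNSC. The gates of either sort are not stated in the labels.

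Glutathione is made from glutamate, cysteine and glycine, with glutamate-cysteine ligase (catalytic subunit Gclc, modifier subunit Gclm) setting the rate and glutathione synthetase (Gss) finishing the job. Transferases attach it to reactive molecules, glutathione peroxidases use it to reduce peroxides, and glutathione reductase (Gsr) regenerates it with NADPH. Peroxiredoxins reduce peroxides through a cysteine that thioredoxin then restores, and thioredoxin reductase restores thioredoxin. Many of these genes, Gclm, Nqo1, Txnrd1 and Prdx1 among them, are known targets of the transcription factor NRF2 (Nfe2l2), which binds antioxidant response elements. In the brain, astrocytes are known for strong glutathione metabolism.

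A shared feature of part of the family is selenocysteine, an amino acid that the codon TGA encodes in a few messages where it would otherwise stop translation. A TGA inside the reading frame was found in 6 of the 57 coding sequences (GENCODE M21), and each is annotated as a selenocysteine. The runs below are written 5′ to 3′ on the coding strand, with up to 15 bases on each side and the TGA in capitals, and they show that the codon sits inside the peroxidases but next to the last codon in the reductases.
Gpx1: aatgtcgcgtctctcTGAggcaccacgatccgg
Gpx3: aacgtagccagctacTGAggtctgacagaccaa
Gpx4: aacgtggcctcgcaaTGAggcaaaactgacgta
Txnrd1: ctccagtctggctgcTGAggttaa
Txnrd2: actgtgactggttgcTGAggctaa
Txnrd3: actcagaaaggctgcTGAggctag
In Gpx1, a cytosolic peroxidase, the TGA is codon 47 of 201. In Txnrd1, the cytosolic thioredoxin reductase, it is codon 612 of 613. The coding sequences of the other 51 members hold none, Gpx7 and Gpx8 of the secretory pathway included. Calls among these 6 genes went both ways: Gpx1, Gpx3 and Txnrd1 were higher in aNSC than in qNSC, Gpx4 and Txnrd2 were lower, and Txnrd3 was not called.

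Promoters were searched for the core of the antioxidant response element, written TGACNNNGC, on both strands of the window from 250 bases before to 50 bases after each RefSeq gene start (GRCm38.p6). A match was found for 9 of the 47 members with a window (19.1%) and for 3781 of all 27025 genes with a window (14.0%). By window, the shares were 9 of 65 (13.8%) and 4071 of 32851 (12.4%). The 9 were Gclm, Gsta3, Gstm5, Gstm7, Prdx1, Sod1, Txndc11, Txndc5 and Txnrd1. Known NRF2 targets among them are shown because the results set them apart: Gclm was lower in aNSC than in qNSC, Txnrd1 was higher, and Prdx1 was not called. Each run is the plus strand, 89 bases, with the match in capitals. The element is read on the other strand, so it appears here as its reverse complement.
Gclm, chr3:122245383-122245471: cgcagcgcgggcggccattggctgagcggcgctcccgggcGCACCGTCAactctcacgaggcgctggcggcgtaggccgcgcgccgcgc
Prdx1, chr4:116685426-116685514: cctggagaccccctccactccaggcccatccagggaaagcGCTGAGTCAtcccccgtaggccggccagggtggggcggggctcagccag
Txnrd1, chr10:82859074-82859162: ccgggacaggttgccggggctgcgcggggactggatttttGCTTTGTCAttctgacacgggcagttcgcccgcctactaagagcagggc
A match is a string of letters in this window and says nothing of binding in these cells.

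Some members have copies elsewhere in the genome, several of them near-identical, so reads can be divided between them. The labels do not say to which copy the authors gave such reads. The pseudogene Txn-ps1 (GRCm38, chr1:44463923-44464231) matches the coding sequence of thioredoxin 1, Txn1 (chr4:57943373-57956411), at 296 of 309 bases (95.8%). The first 75 bases of both are shown with their 6 differences in capitals, since these differences are all that a read from this stretch offers to tell the genes apart.
Txn1: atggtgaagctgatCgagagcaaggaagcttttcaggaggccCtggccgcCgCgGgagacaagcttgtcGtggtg
Txn-ps1: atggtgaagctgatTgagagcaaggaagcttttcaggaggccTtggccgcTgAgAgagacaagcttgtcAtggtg
Gpx4-ps2 matches Gpx4 at 510 of 512 aligned bases (99.6%), Gstp2 matches Gstp1 at 621 of 633 (98.1%) and Prdx6b matches Prdx6 at 627 of 675 (92.9%). Prdx6-ps2 matches Prdx6 at 587 of 716 aligned positions (82.0%), gaps counted as differences. Gstm2-ps1, of 657 bases, lies on chromosome 5 (chr5:116632908-116633564), away from the other Gstm genes on chromosome 3. It matches Gstm2 at 557 of 657 aligned positions (84.8%). With Gstm1 it matches at 643 of 735 aligned positions (87.5%), where gaps count as differences. Thus 643 of its 657 bases have an identical partner in Gstm1. Values of these genes are uncertain to that extent.

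Values are the authors' log2 values on a scale that resembles log2 CPM, so a difference of 1 is a factor of 2. Library depth is unknown. Each library has a floor between -5.06 and -2.18 that its undetected genes share, with 362 to 3932 genes at it, and a fold change of a gene near the floor depends on where the floor lies. The library with most genes at its floor was qNSC replicate 1. Within groups, libraries correlated across genes at r = 0.88 to 0.987. Summed astroglial marker levels (10 of 10 markers found) were 23095 to 24701 in qNSC, 20023 to 24329 in pNSC and 1705 to 3194 in aNSC, and summed neuroblast markers (10 of 10) ran from 167 to 276 in qNSC to 10390 to 10554 in NB2. In Other, endothelial markers (10 of 10) summed to 1265 to 3440, whereas in the other niche libraries they did not exceed 28.5. These markers' part in the results was not tested. In sorted bulk samples, fewer cells of a type and less RNA per cell cannot be told apart. Since no label ties a replicate to its own animal or culture, a p-value here reflects spread among libraries that may be partly technical.

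Across the niche, the summed linear level of the 61 members was highest in qNSC, at 9914.7 ± 547.6 (SD, n = 4) of a library sum near 987900, and in pNSC, at 9684.4 ± 894.1. It was 6080.4 ± 216.7 in aNSC and 4493.9 ± 602.9 (n = 3) in NB2. The qNSC and pNSC libraries overlapped, and every one of them lay above every aNSC, NPC1, NPC2, NB1, NB2 and Other library. Such a sum is weighted to the most abundant members and does not describe each of the 61. Among the abundant ones, mean log2 levels in qNSC and aNSC were 11.13 and 9.61 for Prdx6 and 10.46 and 6.90 for Gstm1. They were 9.73 and 7.57 for Gstm5, while Prdx2 went the other way, with 8.21 and 9.65. Of the 61 members, 34 had their highest mean of the 8 populations in qNSC and 13 in Other, and 29 had their lowest in NB2. None peaked in NPC1. Prdx6b and Prdx6-ps2 are among the 34, with means of -0.75 and -2.90 in qNSC, although neither passed the niche filter on low values. The same counts were not made over all genes.

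**Figure D1:**
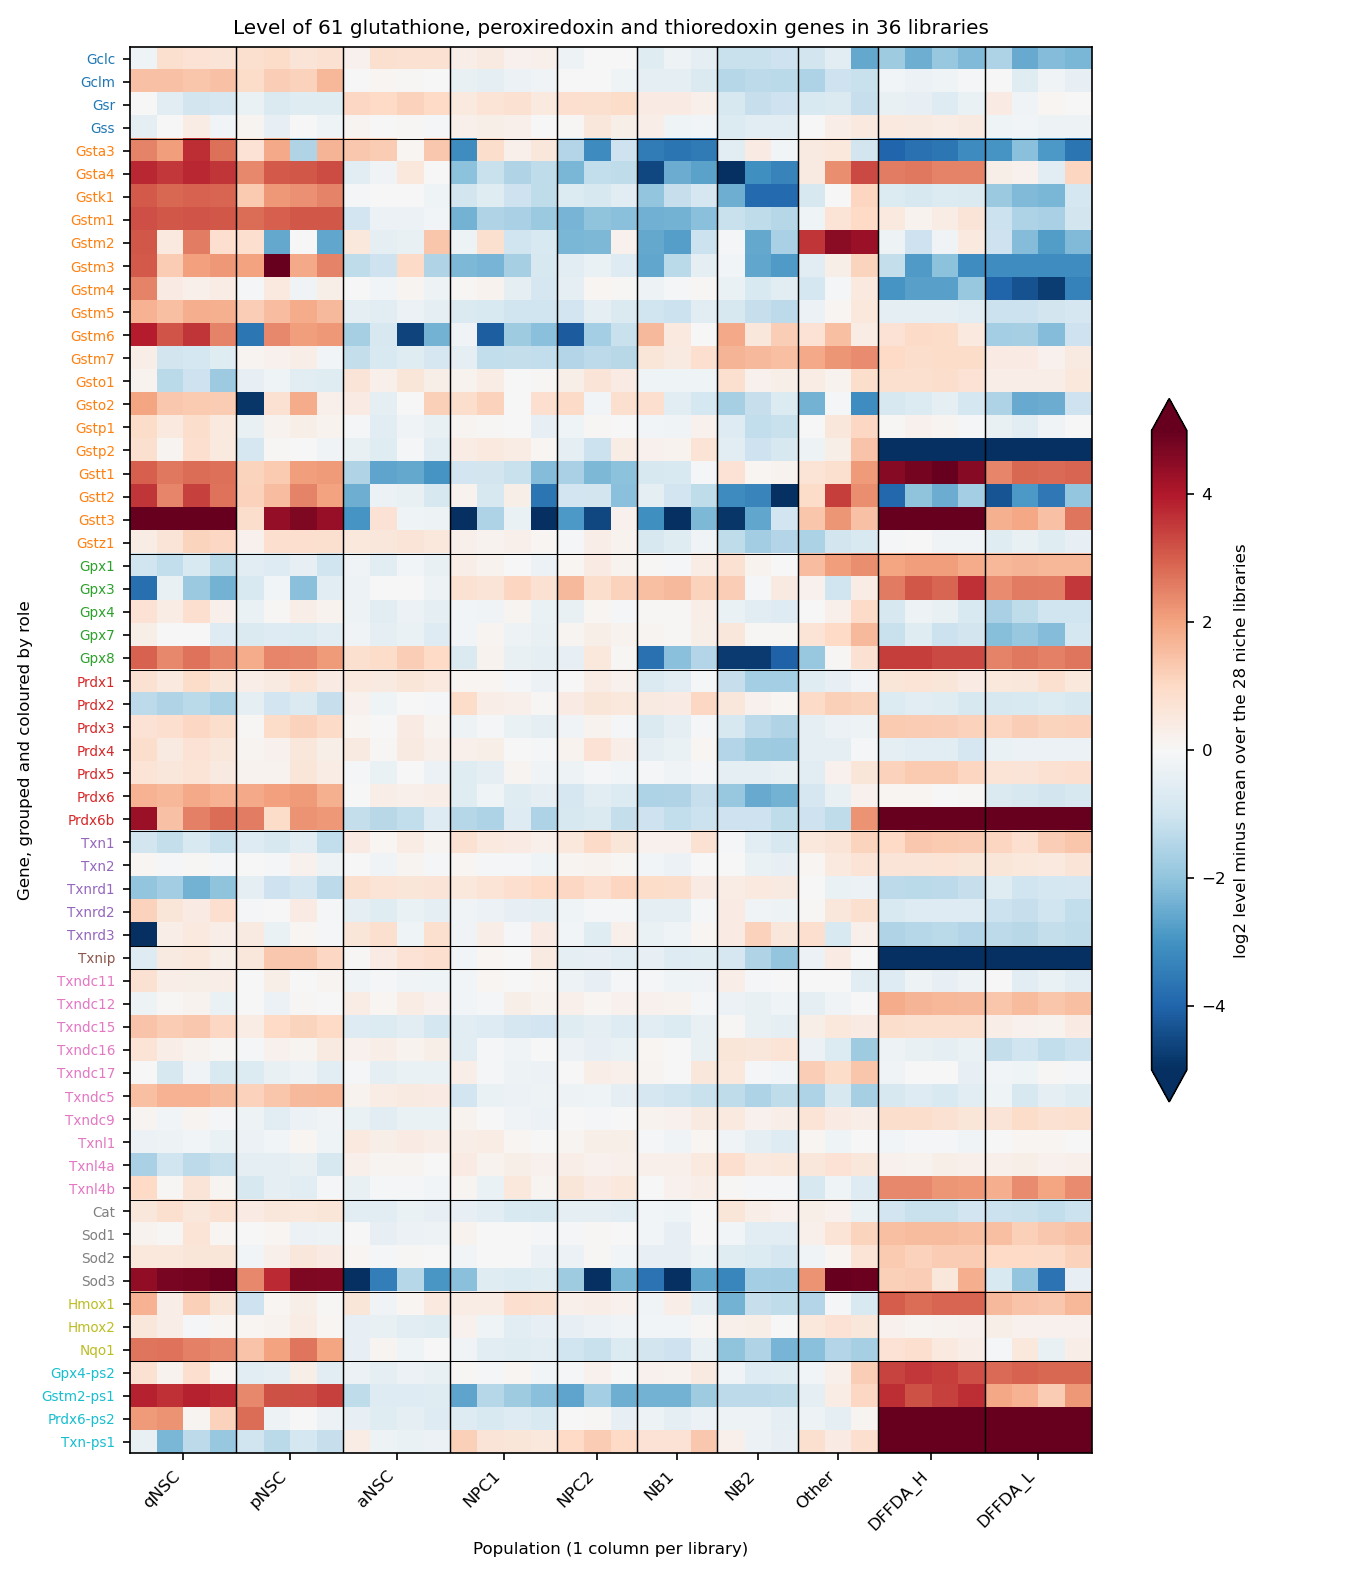
Log2 level of each of the 61 members (rows, by role) in each of the 36 libraries (columns, by group), as the difference from the gene's mean over the 28 niche libraries; colours run from -5 to 5. Most transferases are above their mean in qNSC and pNSC, and the pseudogenes stand out in the DFFDA libraries.

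The leading genes changed along the series of populations. Per kilobase of exon, the highest level in qNSC was that of Gstm1 (log2 level per kb 9.90), a mu-class transferase, followed by Gstm5 (9.38), Prdx6 (8.86) and Prdx1 (7.95). In aNSC the order was headed by the cytosolic peroxiredoxins Prdx2 (8.04) and Prdx1 (7.77), and in NB2 by Prdx2 (8.34). In Other, Prdx2 (9.14) and Gpx1 (8.34) led. Prdx2 overlaps Rnaseh2a and Junb in the annotation, and the libraries do not mark strand, so its reads cannot be fully separated from theirs. The same holds for Txnrd1, which overlaps Gm38560, Gm47073 and Eid3, and for other members with an overlapping gene.

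The extracellular superoxide dismutase Sod3 (chr5:52363791-52371418) had the widest range. Its log2 levels were 6.08, 6.38, 6.43 and 6.54 in qNSC, 4.02, 5.34, 6.30 and 6.28 in pNSC, and -4.71 (the floor), -1.81, 0.22 and -1.27 in aNSC. The Other libraries were at 3.87, 7.56 and 6.53. The libraries of aNSC, NPC1, NPC2, NB1 and NB2 ran from the floor to 1.02, so they did not overlap with qNSC, pNSC or Other.

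The transferases Gstm1 and Gsta4 were also highest in qNSC and pNSC. Gstm1 (chr3:108012255-108017973), in the Gstm cluster of chromosome 3, stood at 10.52, 10.41, 10.47 and 10.43 in qNSC, at 10.10 to 10.43 in pNSC and at 6.36, 7.01, 7.02 and 7.19 in aNSC. It was lowest in NB1 (4.93, 4.94 and 5.21) and higher again in NB2 (6.21, 6.02 and 5.89). Gsta4 (chr9:78182774-78209349), which acts on the lipid peroxidation product 4-hydroxynonenal, went from 7.02 ± 0.13 in qNSC to 3.31 ± 0.44 in aNSC and -0.60 ± 1.3 in NB2. Gsta4 in Other spread widely, at 3.81, 5.68 and 6.68.

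Other members went the opposite way. Txnrd1 (chr10:82833951-82897712) was at 6.27, 6.48, 5.87 and 6.21 in qNSC, at 7.73, 7.19, 7.37 and 6.93 in pNSC and at 9.04, 8.90, 8.84 and 8.88 in aNSC, and its means stayed between 8.67 and 9.21 through NB2. The 3 stem cell groups did not overlap for this gene. Prdx2 rose from 8.21 ± 0.13 in qNSC through 8.84 ± 0.31 in pNSC to 9.65 ± 0.18 in aNSC. Gpx1 (chr9:108338903-108340343) was lowest in qNSC (5.55 to 6.13) and highest in Other (8.43, 8.96 and 9.21), again with no overlap between those 2 groups. The mitochondrial thioredoxin Txn2 had means from 7.34 to 8.02 over the 8 populations.

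**Figure D2:**
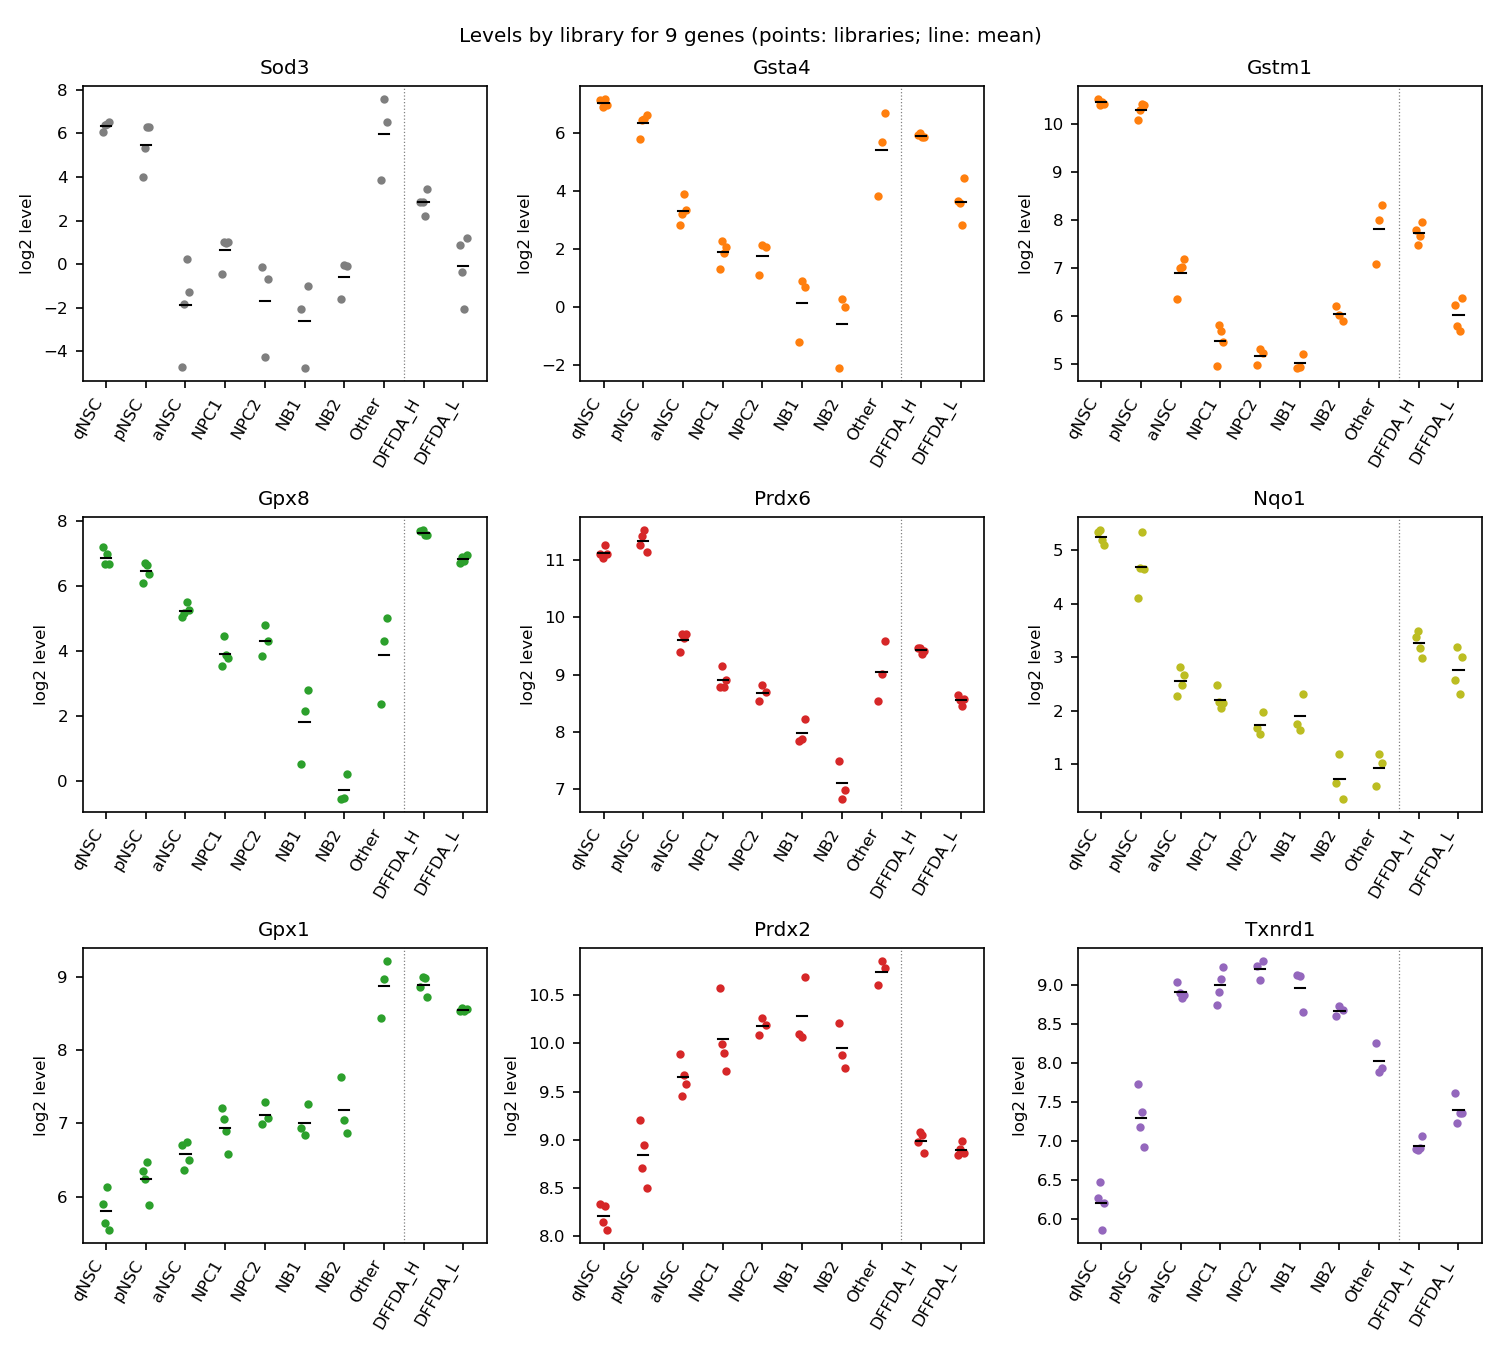
Log2 level of 9 members in every library, grouped by population; each point is 1 library. Sod3, Gsta4 and Gstm1 are high in qNSC and pNSC and low in aNSC, Txnrd1 is the reverse, and Gpx1 is highest in Other and in both DFFDA groups.

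The comparison of qNSC with aNSC asks which members differ between cells named as quiescent and as activated. Of 18 transferases, 12 were lower in aNSC, as were all 4 superoxide dismutase and catalase genes and Nqo1, whereas Txnrd1, Gsr, Prdx2, Txn1 and Gpx1 were higher. Of 59 members tested, 11 rose and 33 fell from qNSC to aNSC (limma, adjusted p under 0.05). That is 74.6% of members against 62.3% of all 17788 genes, and by direction 35.3% of all genes were higher and 27.1% lower. The members' median change was -0.723 against 0.186 for all genes (log2), and in 44 members (74.6%) the libraries of the 2 groups did not overlap, against 57.6% of all genes. Summed markers of other cell types moved with this change: oligodendrocyte precursor markers (9 of 10 found) from 1744 to 1936 in qNSC down to 203 to 406 in aNSC, mature neuron markers (10 of 10) from 331 to 492 down to 40.5 to 64.6, ependymal markers (10 of 10) from 164 to 197 down to 22.6 to 33.4, mural markers (7 of 10) from 174 to 240 down to 7.92 to 14.7 and oligodendrocyte markers (10 of 10) from 431 to 721 down to 209 to 259. Their part in the result was not tested.

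Glutathione synthesis and recycling were split. Gclm fell by 1.39 ± 0.13 (log2, SE; 2.63-fold, limma adjusted p = 8.43e-10), from 7.83, 7.85, 7.74 and 7.85 to 6.40, 6.46, 6.44 and 6.40. Gclc, its catalytic partner, was at 6.51 ± 0.47 in qNSC and 6.65 ± 0.27 in aNSC (limma adjusted p = 0.653), with overlapping libraries. Gss was not called either (0.07, adjusted p = 0.742). Gsr rose by 1.63 ± 0.15 (3.09-fold, limma adjusted p = 8.56e-10), and its 4 aNSC libraries (6.87 to 7.04) all lay above its 4 qNSC libraries (4.96 to 5.87).

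Among the transferases, 1 rose and 5 were not called beside the 12 that fell, with a median change of -1.95. Gstm1 fell 11.8-fold (-3.56 ± 0.20, limma adjusted p = 8.86e-14), and Gstm5, in the same cluster, 4.46-fold. The theta-class gene Gstt1 fell by 5.22 ± 0.34 (adjusted p = 1.13e-12), and Gstk1, of the mitochondrial kappa class, 8.07-fold, from 7.04, 6.85, 6.95 and 6.88 to 3.89, 3.97, 4.03 and 3.79. The pseudogene Gstm2-ps1 was at 7.38, 7.18, 7.37 and 7.25 in qNSC and at 2.25, 2.87, 2.87 and 2.93 in aNSC. How reads were divided between it and Gstm1 is not known. Gstt3 (-6.11 ± 1.14) and Gstm6 (-5.64 ± 1.05) were near or at the floor in some aNSC libraries, so their folds depend on it. The exception was Gsto1, an omega-class enzyme with thioltransferase activity, which rose by 1.45 ± 0.26 (adjusted p = 2.38e-05). The calls of Gstm4 and Gstm3 were less firm: Gstm4 was no longer called without any 1 of 3 libraries, up to an adjusted p of 0.213 (without qNSC replicate 1), nor Gstm3 with values below 0 set to 0 (0.543).

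Among the glutathione peroxidases, Gpx1 rose by 0.77 ± 0.18 (limma adjusted p = 0.000736) and plasma-type Gpx3, low throughout the niche, by 1.97 ± 0.51 (0.00146). For Gpx3, 1 of the 4 qNSC libraries was at its floor (-2.18), so the size of its rise depends on that floor. Gpx4, which reduces lipid hydroperoxides in membranes, fell by 0.96 ± 0.18 (4.64e-05) from 6.69 to 7.27 in qNSC to 5.84 to 6.16 in aNSC. Gpx8, of the endoplasmic reticulum, fell by 1.63 ± 0.42 (0.00148). It overlaps Cdc20b in the annotation.

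Of 6 peroxiredoxins tested, 4 fell and 1 rose. Prdx6, which has a single active cysteine and uses glutathione, fell 2.85-fold (-1.51 ± 0.16, limma adjusted p = 1.00e-08), from 11.10, 11.03, 11.26 and 11.10 to 9.39, 9.71, 9.64 and 9.71. Prdx2 rose 2.70-fold (1.44 ± 0.17, adjusted p = 4.26e-08). Prdx3 (-0.72), a mitochondrial enzyme, and Prdx5 (-0.79), also found there, fell. Prdx1 was not called (-0.18, adjusted p = 0.28). Prdx4, of the endoplasmic reticulum, was called at an adjusted p of 0.0493, which ranged up to 0.165 over the alternatives, and its libraries overlapped.

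In the thioredoxin branch, the cytosolic pair rose: Txnrd1 by 2.71 ± 0.15 (6.53-fold, limma adjusted p = 5.43e-14) and Txn1 by 1.26 ± 0.18 (2.39-fold, adjusted p = 1.04e-06), the latter from 6.02 to 6.47 up to 7.31 to 7.65. The mitochondrial reductase Txnrd2 fell by 1.22 ± 0.19 (3.32e-06), and Txn2 was not called. Txnip, the thioredoxin inhibitor, was not called (0.37, adjusted p = 0.201). Of the 10 thioredoxin-domain proteins, 3 rose and 5 fell, among them Txnl4a, a splicing factor of the U5 particle (1.39 ± 0.12), and Txndc15 (-1.94 ± 0.15) and Txndc5 (-1.28 ± 0.17), which is a disulphide isomerase.

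All 4 superoxide dismutase and catalase genes fell. Sod3 fell by 8.25 ± 0.96 (limma adjusted p = 3.44e-08, with 1 aNSC library at the floor), catalase by 1.13 ± 0.12 (1.10e-08) and mitochondrial Sod2 by 0.55 ± 0.15 (0.00193). Cytosolic Sod1 fell by 0.48 ± 0.17 (0.0143), a call that ended without qNSC replicate 3 (0.083). The quinone reductase Nqo1 fell 6.43-fold (-2.69 ± 0.26, 1.38e-09), from 5.09 to 5.37 down to 2.27 to 2.82. Of the haem oxygenases, Hmox2 fell by 0.71 ± 0.15 (0.000173) and Hmox1 was not called (-0.72, 0.0751).

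**Figure D3:**
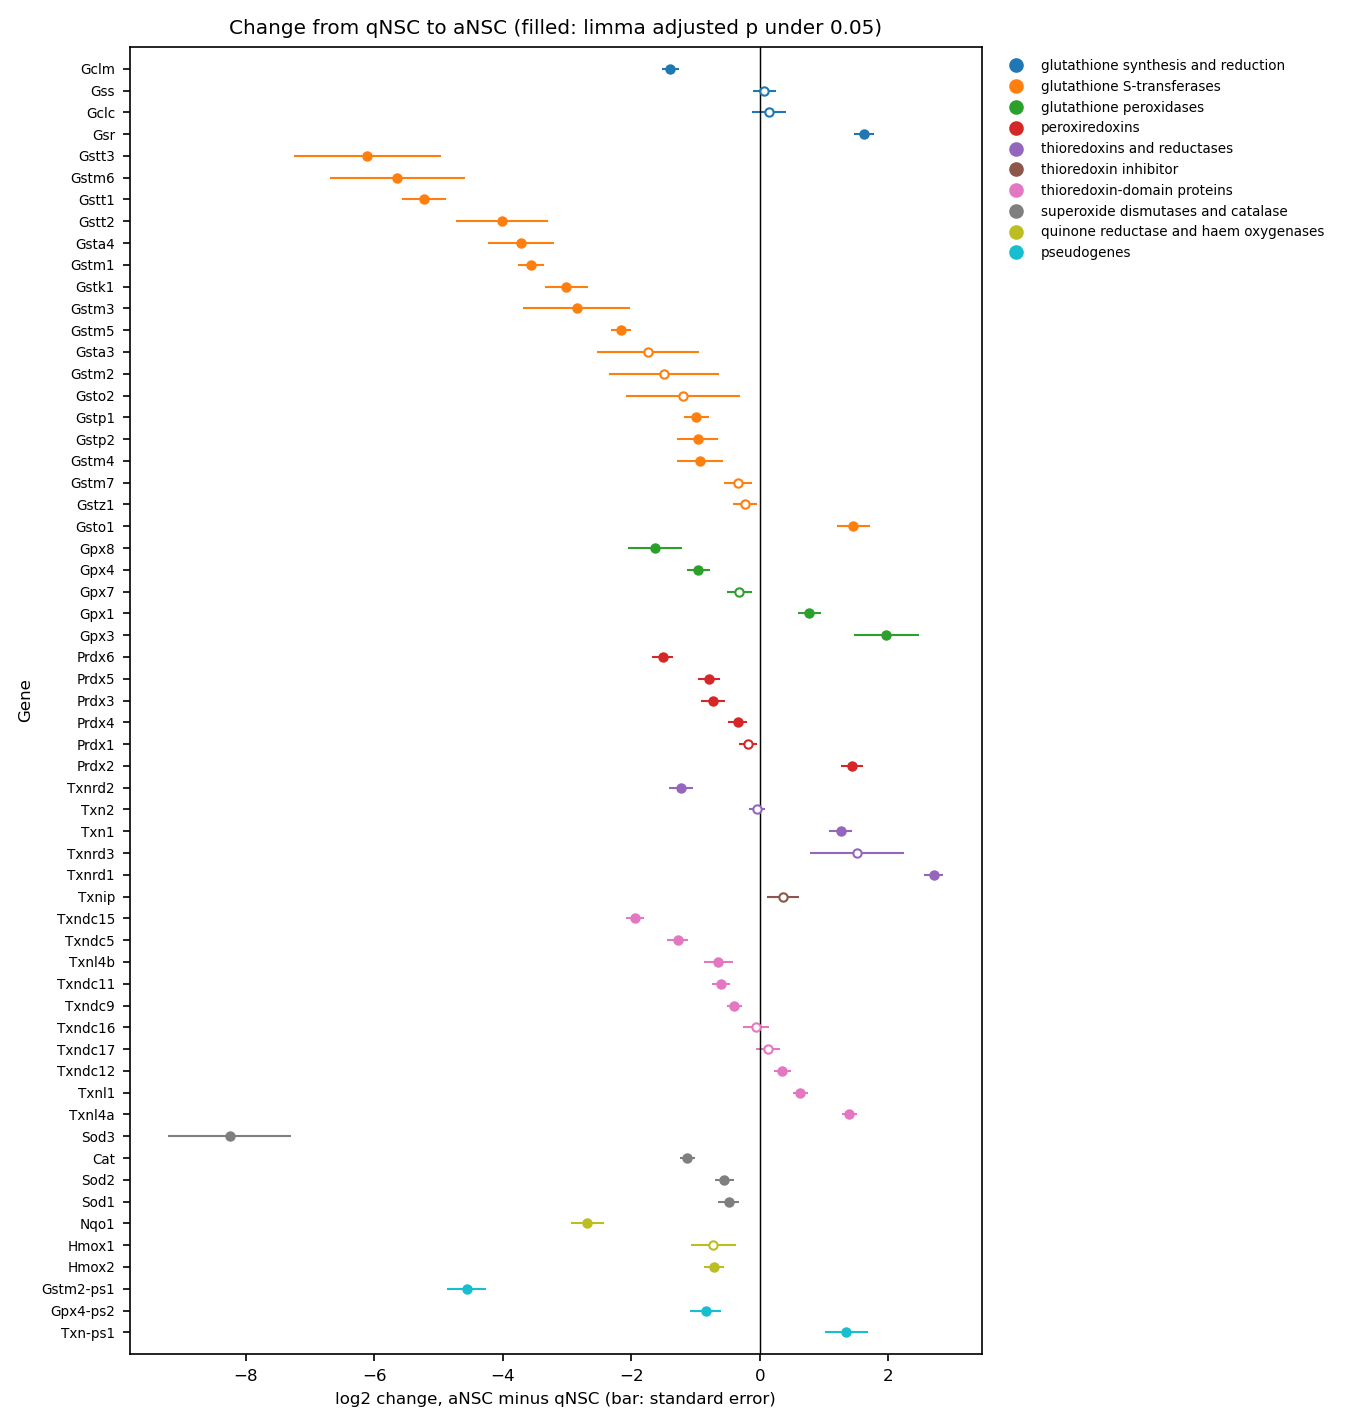
Log2 change from qNSC to aNSC of each tested member, coloured by role, with its standard error from limma; filled points passed an adjusted p of 0.05. Points left of 0 were lower in aNSC, with Sod3 farthest left at -8.25, and Txnrd1 is farthest right at 2.71.

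The pNSC group lay near qNSC in Gstm1 and Prdx6 and between qNSC and aNSC in Txnrd1. From qNSC to pNSC, 5 members rose and 9 fell (23.7% of 59, against 22.3% of all genes, of which 14.2% were higher and 8.06% lower), and from pNSC to aNSC 8 rose and 24 fell (54.2% against 48.3%, with 28.4% of all genes higher and 19.9% lower). Txnrd1 rose at both steps, by 1.1 ± 0.15 (limma adjusted p = 8.41e-06) and 1.61 ± 0.15 (2.55e-09), as did Txnl4a (0.75 and 0.65) and Prdx2 (0.63 and 0.81), although the first step of Prdx2 ended without pNSC replicate 1 (0.0522). Txnip was higher in pNSC (6.61, 7.41, 7.42 and 7.08) than in qNSC (5.40, 6.5, 6.57 and 6.34), by 0.93 ± 0.25 (0.00819, and 0.0604 with only those 2 groups in the fit).

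Gsr was called at the later step but not the earlier: it was at 5.31 ± 0.41 in qNSC, 5.32 ± 0.18 in pNSC and 6.93 ± 0.07 in aNSC, and rose by 1.61 ± 0.15 from pNSC to aNSC (limma adjusted p = 3.40e-09). Whether the 2 steps differ was not tested. Gstm1 and Prdx6 likewise were not called from qNSC to pNSC and fell from pNSC to aNSC, by 3.42 ± 0.20 (7.58e-13) and 1.73 ± 0.16 (3.11e-09). Gclm fell by 1.18 ± 0.13 at that step (4.96e-08), Nqo1 by 2.13 ± 0.26 (2.14e-07), catalase by 0.97 ± 0.12 (3.59e-07) and Sod3 by 7.38 ± 0.96 (5.81e-07). Txn1 rose by 1.05 ± 0.18 (2.90e-05).

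The excess of falls from qNSC to pNSC did not hold under every setting. Library weights gave 6 members higher and 1 lower, and the fit of only qNSC and pNSC gave 3 and 3. Leaving out qNSC replicate 1 gave 6 and 3, qNSC replicate 3 gave 4 and 3, pNSC replicate 1 gave 3 and 3, and pNSC replicate 2 gave 4 and 5. Txnl4b (-0.94, limma adjusted p = 0.00458) and Txnrd2 (-0.67, 0.0117) fell, and both calls ended with only those 2 groups in the fit (0.105 and 0.0897). Gstt1 fell by 1.15 ± 0.34 (limma adjusted p = 0.0183), which ended without pNSC replicate 1 (0.0787) or 2 (0.0544). Hmox1, the stress-induced haem oxygenase, fell by 1.12 (0.0225), which ended without pNSC replicate 1 (0.115) or qNSC replicate 1 (0.0884) or 3 (0.0547). Gstm2 fell by 2.83 (0.0198) with 2 pNSC libraries at the floor, and ended without any 1 of 4 libraries, up to 0.072 (without qNSC replicate 1). The other 4 falls, of Gpx7 (-0.58), Txndc9 (-0.34), Gstp1 (-0.62) and Gpx4-ps2 (-0.77), each ended without at least 1 library.

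Beyond aNSC, fewer members were called until the step from NB1 to NB2. From aNSC to NPC1, 1 member rose and 6 fell (11.9% of 59, against 12.7% of all genes, of which 6.24% were higher and 6.48% lower). Gstm1 fell by 1.41 ± 0.20 (limma adjusted p = 3.36e-05), with NPC1 at 4.96, 5.81, 5.70 and 5.46, all below the aNSC libraries. Txndc5 (-0.82, 0.00148), Prdx6 (-0.71, 0.00455) and Prdx1 (-0.56, 0.0107) fell as well. The rise of Gstt1 (1.13, 0.0296) ended without any 1 of 6 libraries, with adjusted p up to 0.114 (without aNSC replicate 4). The fall of Gpx8 (-1.33, 0.0354) ended without any 1 of 7 libraries, up to 0.113 (without NPC1 replicate 1), and that of Gstm2-ps1 (-1.19, 0.00861) without NPC1 replicate 1 (0.0537).

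From NPC1 to NPC2 no member of 59 was called by limma, where 1.34% of all genes were. At an unadjusted p under 0.05 there were 2 (3.39%, against 10.3% of all genes), and the smallest adjusted p was 0.422. With library weights, 1 member was called, Txnip, at an adjusted p of 0.0205. Its means were 6.14 ± 0.25 in NPC1 and 5.59 ± 0.06 in NPC2.

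From NPC2 to NB1, 2 members rose and 6 fell (13.6% of 59, against 7.67% of all genes, of which 3.78% were higher and 3.88% lower). The mu-class transferase Gstm7 (chr3:107926334-107931817) rose by 2.01 ± 0.25 (limma adjusted p = 8.36e-06), from 3.61, 3.78 and 3.70 to 5.68, 5.50 and 5.93. Gpx8 fell by 2.49 ± 0.49 (0.00139), from 3.85, 4.80 and 4.32 to 0.52, 2.17 and 2.80. Neither pair of groups overlapped. The other 6 calls each ended without at least 1 library. Among them, Prdx1 (-0.66, 0.0131) reached 0.114 without NB1 replicate 1, Prdx6 (-0.71, 0.0179) 0.0974 without that library, and Prdx4 (-0.63, 0.0236) 0.17 without NPC2 replicate 2. Gstt1 (1.43, 0.0245) reached 0.112 without NPC2 replicate 2, Txndc5 (-0.66, 0.0324) 0.118 without that library, and Gclm (-0.48, 0.048) 0.173 without NB1 replicate 3.

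From NB1 to NB2 more members fell: 21 fell and 5 rose (44.1% of 59, against 24.6% of all genes, of which 14.2% were lower and 10.4% higher). Their median change was -0.356 against -0.0256. Of 6 peroxiredoxins tested 4 fell, and of 4 genes of glutathione synthesis and reduction 3 fell. Without NB2 replicate 3, 16 members were called. Markers of neuroblasts (6930 to 8210 in NB1, 10390 to 10554 in NB2), mature neurons (48.6 to 78.4, 153 to 169) and oligodendrocyte precursors (53.8 to 89.2, 106 to 161) moved with this step, and their part in it was not tested.

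Prdx4 fell by 1.46 ± 0.17 (limma adjusted p = 8.19e-07), from 6.42, 6.57 and 7.0 to 5.43, 5.13 and 5.05. Gsr fell by 1.36 ± 0.18 (2.58e-06), from 6.29, 6.32 and 6.15 to 5.08, 4.74 and 4.84. Both pairs of groups were apart. Prdx1 (-1.08 ± 0.17, 2.70e-05), Gclm (-0.81 ± 0.15, 0.000242), Prdx6 (-0.87 ± 0.19, 0.00119) and Txn1 (-0.86 ± 0.21, 0.00314) fell, as did Nqo1 (-1.17 ± 0.30, 0.00505) and Gstk1 (-2.08 ± 0.39, 0.000234). Gpx8 fell by 2.12 ± 0.49 (0.00199) to -0.54, -0.53 and 0.21. Less firm were Prdx3 (-0.78, 0.00939), at 0.069 without NB1 replicate 3 and 0.0673 without NB2 replicate 3, and Hmox1 (-1.49, 0.00827), at 0.0643 without NB2 replicate 1. The calls of Gpx4 (-0.66, 0.0216), Gss (-0.58, 0.0378) and Txnip (-0.88, 0.0242) each ended without any 1 of 3 or 4 libraries, with adjusted p up to 0.0891 (without NB1 replicate 3), 0.205 (without NB1 replicate 1) and 0.165 (without NB2 replicate 3). Gstt2 (-2.94, 0.0107) lay near or at the floor, and its call ended when values below 0 were set to 0 or without NB2 replicate 3 (0.0784).

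Against that direction, Gstm1 rose by 1.02 ± 0.24 (limma adjusted p = 0.00217) and Gstm7 by 0.98 (0.00535), to 6.78, 6.71 and 6.57. Catalase, which breaks down hydrogen peroxide in peroxisomes, rose by 0.51 ± 0.14 (0.00979), from 7.12, 7.06 and 7.25 to 7.88, 7.58 and 7.49, and that call ended without NB2 replicate 1 (0.0664). Gsta3 was called higher, but all 3 NB1 libraries are listed at their floor and the call ended when values below 0 were set to 0. Its NB2 values were -1.61, -0.69 and -1.23. The call of Txndc16 (0.69, 0.0299) ended without any 1 of 4 libraries, up to 0.145 (without NB1 replicate 3).

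The group labelled Other was compared with the mean of the 7 named populations. Of 59 members, 23 were higher and 12 lower in Other (59.3%, against 54.3% of all genes, of which 25.9% were higher and 28.4% lower). Sod3, Gpx1 and several transferases were higher, while Gclc, Gclm, Gsr and Nqo1 were lower and Gss was not called. In 5 members, Gpx1, Gstm7, Gstm2, Txndc17 and Gpx7, all Other libraries lay above all 25 others (8.47% of members, against 4.83% of all genes). Gstm2 is 1 of the 5 and passed the filter on low values through Other alone, so that share supports no direction. It is also among the 59 members counted above. Endothelial and mural markers move with this group: mural markers (7 of 10 found) summed to 159 to 2069 in Other, 174 to 240 in qNSC and 45.6 to 177 in pNSC, and to at most 18.3 elsewhere in the niche. Microglial markers summed to 698 to 1197 in Other, overlapping pNSC (546 to 1004) and qNSC (339 to 771). Haemoglobin and other red cell genes summed to 44.6 to 473 in Other, overlapping NB2 (44.2 to 100) and NB1 (32.8 to 56.7). Neuroblast markers, at 6397 to 9107, were also high. The part of these cells in the result was not tested.

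Gpx1 was 4.51-fold higher in Other (2.17 ± 0.16, limma adjusted p = 9.50e-11), Gstm7 5.16-fold (2.37 ± 0.19, 4.04e-10) and Prdx2 2.22-fold (1.15 ± 0.15, 4.48e-07). Gstm2, at 1.58, 2.51 and 2.29 in Other, was at 1.11 or below in the other niche libraries, many at the floor, and is given as a description, since it entered the fit only through its Other libraries. Sod3 was higher by 5.17 ± 0.83 (1.11e-05), with qNSC and pNSC overlapping Other. Txn1 (0.82 ± 0.16, 9.42e-05) and Sod1 (0.77 ± 0.15, 8.32e-05) were also higher. The call of Gpx4 (0.45, 0.0161) ended without Other replicate 3 (0.384).

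Lower in Other were Nqo1 (-1.79 ± 0.22, limma adjusted p = 3.79e-07), Gclc (-1.43 ± 0.23, 1.33e-05), Gclm (-1.29 ± 0.11, 1.78e-09) and Gsr (-0.99 ± 0.13, 1.03e-06). Gclc was at 5.11, 5.47 and 3.46, overlapping NB1 and NB2. Gsto2, an omega-class transferase, had the largest fall (-2.01 ± 0.77, 0.0296), which ended without Other replicate 1 (0.125) or 3 (0.23). The call of Hmox1 (-0.81, 0.0271) ended without Other replicate 1 (0.269) or 3 (0.0777), and that of Prdx1 (-0.37, 0.0157) without Other replicate 1 (0.154) or 2 (0.0606). That of Prdx4 (-0.31, 0.0439) ended without any 1 of 9 libraries, up to 0.203 (without Other replicate 1).

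In neurospheres, most called members were higher in the high-dye DFFDA_H cells than in DFFDA_L. Of 55 members tested, 31 were higher and 3 lower in DFFDA_H (61.8%, against 43.8% of all 15956 genes, of which 21.6% were higher and 22.3% lower). The members' median difference was 0.411 against -0.0105. Of these 31, Gstm4, Gstm6, Gsto2 and Sod3 passed the filter on low values through DFFDA_H alone, so the count with them in it supports no direction. The 10 transferases that passed it in both groups were all called higher by limma. The other 5 transferases (Gsta3, Gstm2, Gstm3, Gstp2 and Gstt2) and Txnip did not pass it and were not tested. In 32 members (58.2%) the groups did not overlap, against 39% of all genes, and 28 of them were higher, where 19.2% of all genes were higher without overlap. Gstm4, Gstm6, Gsto2 and Sod3 are among these 28, so that count supports no direction either. The median difference above includes them too.

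Gstt3 (chr10:75774115-75781414) was higher by 3.83 ± 0.21 (14.2-fold, limma adjusted p = 1.53e-07), at 6.00, 6.15, 6.17 and 6.11 in DFFDA_H and 2.1, 2.24, 1.79 and 2.98 in DFFDA_L. Its neighbour Gstt1 was higher by 1.96 ± 0.12 (3.90-fold, 3.76e-07), at 8.22, 8.46, 8.69 and 8.21 against 6.12, 6.54, 6.51 and 6.56. Neither gene's groups overlapped. Gsta4 was higher by 2.27 ± 0.25 (3.23e-05) and Gstm1 by 1.71 ± 0.15 (3.26-fold, 4.30e-06). Gstm1 was at 7.79, 7.49, 7.67 and 7.96 against 6.23, 5.79, 5.68 and 6.39.

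Of the peroxidases, Gpx8 (0.80 ± 0.08, limma adjusted p = 7.74e-06), Gpx4 (0.66 ± 0.16, 0.00451), Gpx1 (0.34 ± 0.08, 0.0026) and Gpx7 (0.84, 0.0196, a call that ended without DFFDA_H replicate 2 at 0.0615 or DFFDA_L replicate 3 at 0.0627) were higher. Prdx6 was higher by 0.87 ± 0.07 (1.83-fold, 1.66e-06), at 9.36 to 9.47 against 8.46 to 8.65. Prdx5 was higher by 0.47 ± 0.08 (0.000429) and Prdx4 lower by 0.30 ± 0.09 (0.0137), while Prdx1, Prdx2 and Prdx3 were not called. Sod3 was at 2.84, 2.87, 2.19 and 3.44 against 0.88, -0.34, -2.06 and 1.21. The call of Sod2 (0.22, 0.0322) ended without any 1 of 6 libraries, up to 0.091 (without DFFDA_L replicate 3). Sod1 and catalase were not called.

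The glutathione-making genes differed from one another: Gss was higher by 0.66 ± 0.10 (limma adjusted p = 0.000189), at 5.06 to 5.17 against 4.43 to 4.53, whereas Gclc (0.05) and Gclm (0.11) were not called. Gsr was lower by 0.50 ± 0.12 (0.005) and Txnrd1 by 0.45 ± 0.09 (0.00137), at 6.89 to 7.07 against 7.23 to 7.62. Hmox1 was higher by 1.39 ± 0.11 (2.62-fold, 1.64e-06), at 5.82, 5.58, 5.71 and 5.71 against 4.43, 4.21, 4.16 and 4.47. Nqo1, at 2.99 to 3.49 against 2.31 to 3.19, was not called (0.49, 0.0824). Summed astroglial markers were 2025 to 2360 in DFFDA_H and 1556 to 1971 in DFFDA_L, and ependymal markers 46.9 to 54.9 and 16.5 to 21.2. Endothelial markers (53.4 to 73.0 and 32.4 to 43.5), microglial markers (105 to 116 and 77.0 to 89.7) and oligodendrocyte markers (246 to 279 and 192 to 245) were also higher in DFFDA_H, and mural markers (17.3 to 19.2 and 25.6 to 38.2) and neuroblast markers (153 to 167 and 171 to 247) were lower. Their part in these differences was not tested.

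The qNSC and DFFDA_H contrasts share no library, so their calls can be set side by side. Of 53 members tested in both, 30 were lower in aNSC than in qNSC, and 19 of those (63.3%) were higher in DFFDA_H and 1 was lower. The 19 include Sod3, Gstm4 and Gstm6, which entered the neurosphere fit only through DFFDA_H, so that share supports no direction. For all genes the share was 1874 of 3952 (47.4%). Read the other way, of the 29 members higher in DFFDA_H 65.5% were lower in aNSC, against 59% of such genes in all. Sod3, Gstm4, Gstm6 and Gsto2 are among the 29, so this share supports no direction either. Of the 11 members higher in aNSC, 2 (18.2%) were lower in DFFDA_H and 3 (27.3%) were higher, against 41.7% and 5.7% of all genes. Gsr and Txnrd1 were the 2, and Gpx1, Gsto1 and Txndc12 were the 3. Hmox1, called in the culture, was not called between qNSC and aNSC, and Gclm and Nqo1 were called in the niche but not in the culture. Whether those differences differ between niche and culture was not tested.

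**Figure D4:**
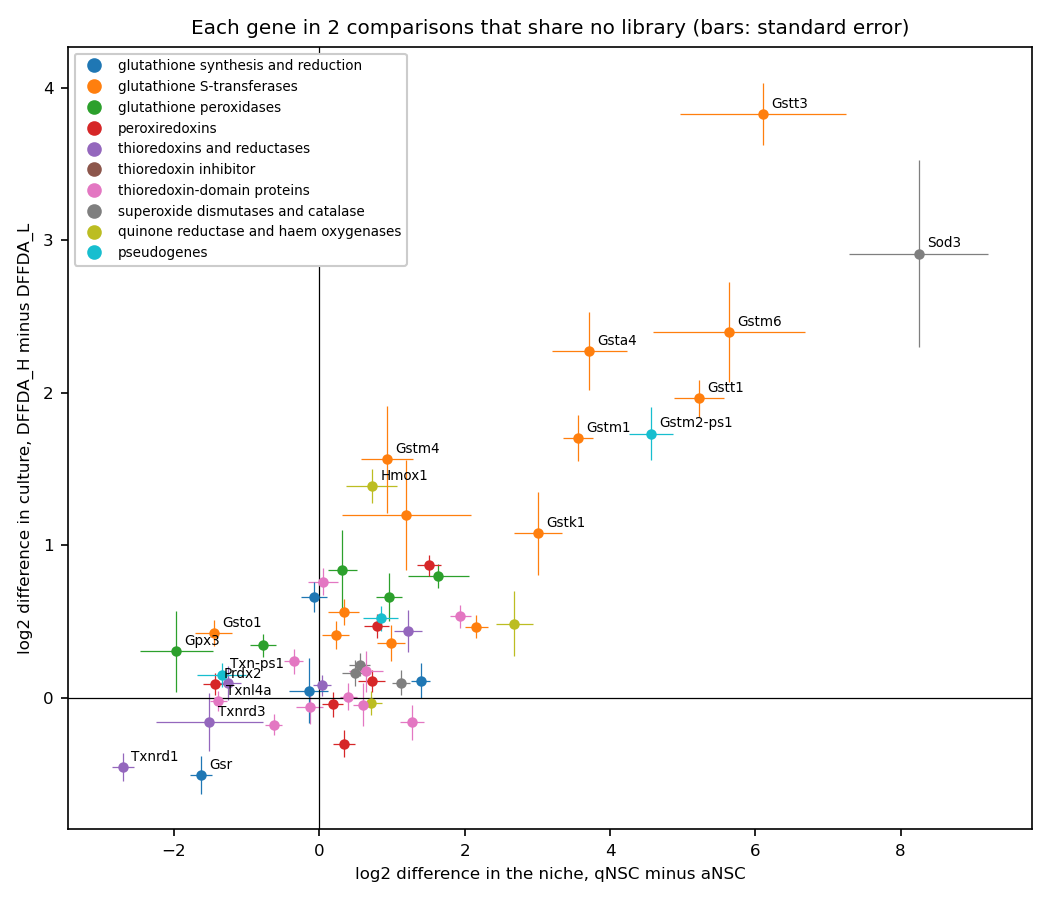
Log2 difference qNSC minus aNSC (horizontal) against DFFDA_H minus DFFDA_L (vertical) for the members tested in both, with standard errors. Gstt3, Gsta4, Gstm1 and Sod3 lie at the upper right, Txnrd1 and Gsr at the lower left, and Gpx1 at the upper left.

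Neurospheres as a whole were also set against aNSC, a pairing that the labels do not name. Culture, passage, sorting and any difference in depth or processing change together in this comparison and cannot be told apart. Of 61 members, 26 were higher and 25 lower in neurospheres (83.6%, against 75% of all 19158 genes, of which 33.9% were higher and 41.1% lower). Gpx1 was 4.40-fold higher (2.14 ± 0.14, limma adjusted p = 7.62e-15), Sod1 3.22-fold (1.69 ± 0.13, 2.30e-13) and Sod2 2.19-fold. Gstt1 was higher by 6.17 ± 0.27 (8.95e-20), at 6.12 to 8.69 in neurospheres and 0.71 to 2.13 in aNSC.

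Txnip, the thioredoxin inhibitor, showed the largest fall of the members: it was at 6.12, 6.47, 6.76 and 6.92 in aNSC, and at -4.23 to -1.79 in DFFDA_H and -2.66 to 0.01 in DFFDA_L (-8.91 ± 0.36, limma adjusted p = 1.72e-20). Gclc was 6.64-fold lower (-2.73 ± 0.23, 1.84e-12), at 3.51 to 4.48 against 6.25 to 6.81, and Gclm by 0.30 (0.0173). Txnrd1 (-1.74 ± 0.12, 1.58e-14), Gsr (-1.22 ± 0.13, 4.05e-10), Prdx2 (-0.71, 1.42e-05), Prdx6 (-0.62, 5.35e-05) and catalase (-0.62, 8.09e-07) were lower. Gstm1 was not called (-0.02, 0.924), but its DFFDA_H and DFFDA_L means, 7.73 and 6.02, lay on opposite sides of its aNSC mean of 6.90. Gstm2-ps1, which resembles it, was at 6.72 to 7.22 in DFFDA_H and 4.79 to 5.70 in DFFDA_L. In aNSC that pseudogene was at 2.25 to 2.93.

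The copies moved apart from their parent genes in this comparison. Txn-ps1 was at 1.44 to 2.16 in aNSC and 7.42 to 7.78 in neurospheres, 61-fold higher (5.93 ± 0.23, limma adjusted p = 9.76e-21), while Txn1 was higher by 0.92 ± 0.15 (1.24e-06). Gpx4-ps2 was higher by 3.51 ± 0.18 (8.74e-18), while Gpx4 was lower by 0.47 ± 0.16 (0.00773). Prdx6b was at 2.34 to 4.03 in neurospheres and at or near the floor in aNSC, and Prdx6-ps2 at 1.29 to 3.29 with all 4 aNSC libraries listed at the floor, while Prdx6 was lower. Gstp2 went the opposite way: it was at 2.37 to 2.87 in aNSC and at -5.06 to -4.71 in neurospheres, where 5 of 8 libraries are listed at the floor, while Gstp1 was not called. How reads were assigned and how much RNA each gene made cannot be told apart in this table. The part of either in these values was not tested.

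**Figure D5:**
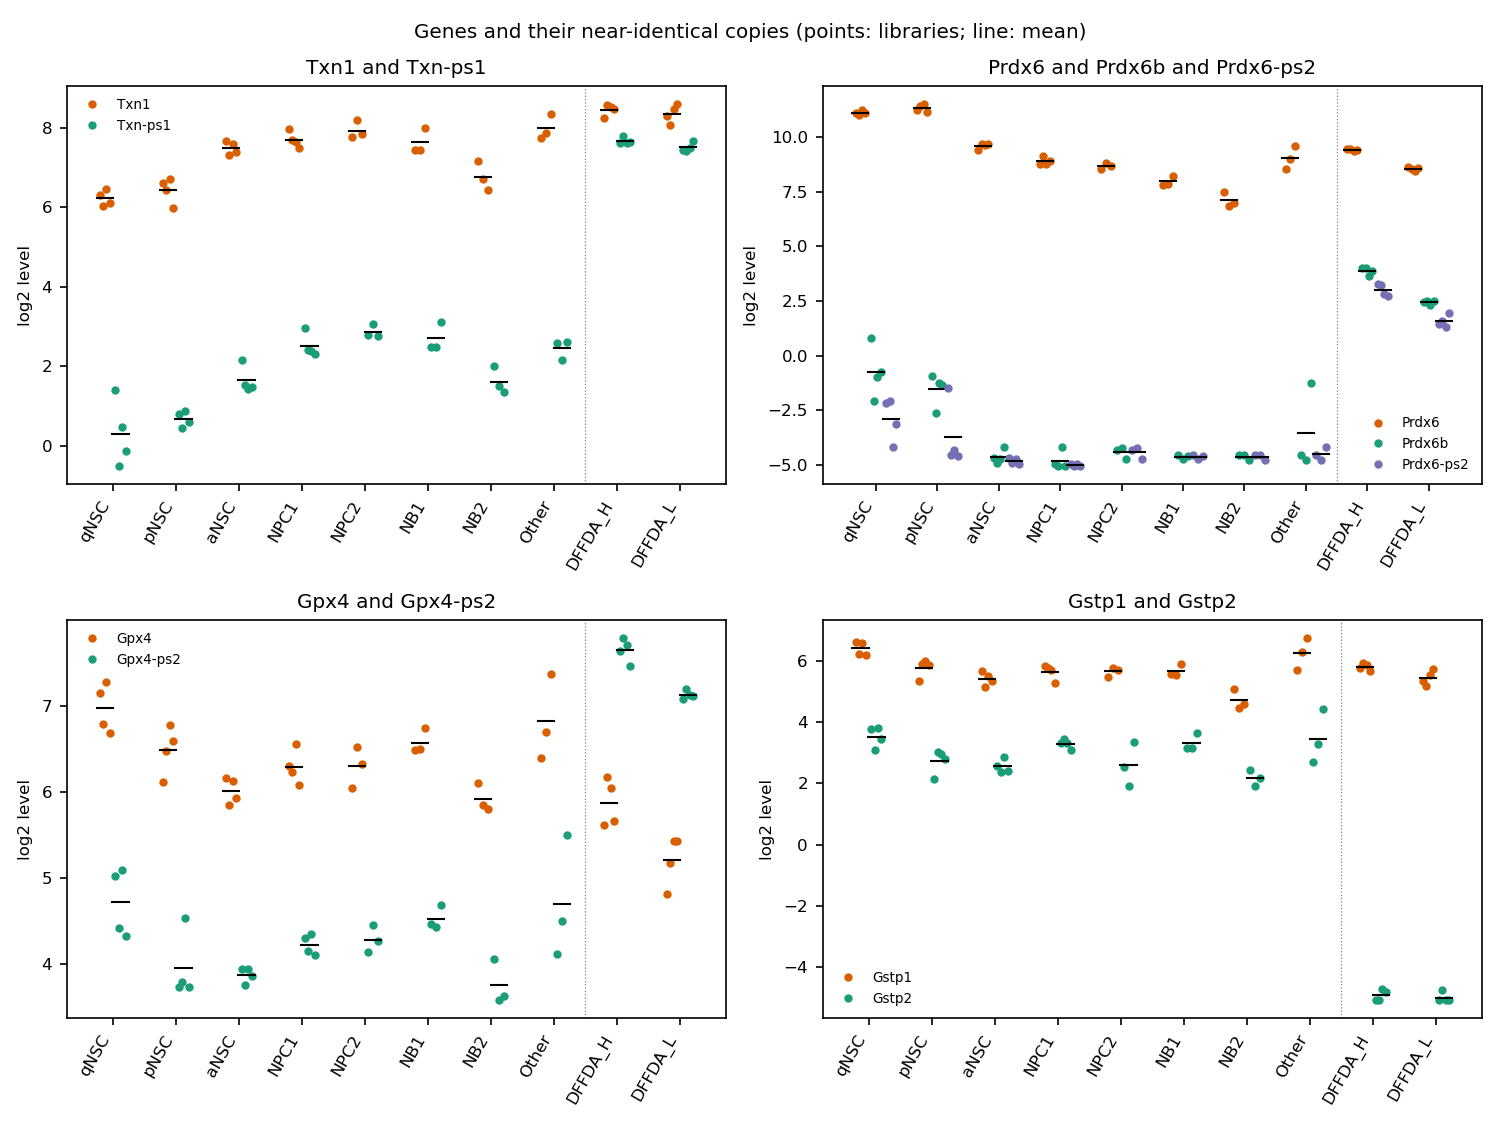
Log2 level of parent genes and their copies in every library, by group. Each point is 1 library. The copies match their parents at 82.0% (Prdx6-ps2) to 99.6% (Gpx4-ps2). Txn-ps1, Gpx4-ps2, Prdx6b and Prdx6-ps2 are higher in the DFFDA libraries than in any niche library, and Gstp2 is lower there.

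Genes around these enzymes were followed with 7 lists. From qNSC to aNSC, 5 of 11 NRF2 pathway regulators rose and 3 fell. Sqstm1, a selective autophagy receptor that binds KEAP1, fell by 1.52 ± 0.12 (limma adjusted p = 2.26e-11) and the small MAF protein gene Maff rose by 2.77 ± 0.38 (4.80e-07). Nfe2l2 itself stood at 7.38 in qNSC, 7.10 in pNSC and 6.30 in aNSC, falling by 0.80 ± 0.20 from pNSC to aNSC (0.00233). From NB1 to NB2 it fell by 1.84 ± 0.24 (2.27e-06), to 3.28, while Bach2, whose protein belongs to a family that competes with NRF2, rose by 1.89 ± 0.24 (2.01e-06). In DFFDA_H, Nfe2l2 was higher by 0.38 ± 0.09 (0.00447) and Bach2 lower by 0.67 ± 0.12 (0.000657), with 2 of 11 regulators higher and 2 lower.

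Of 26 genes of glutathione supply, turnover and export, 6 rose and 13 fell from qNSC to aNSC (73.1%, against 62.3% of all genes). Slc7a11, the cystine importer, fell by 3.85 ± 0.24 (limma adjusted p = 2.96e-13), Oplah, which recycles 5-oxoproline to glutamate, by 3.09 ± 0.17 (5.61e-14) and the microsomal transferase Mgst1 by 3.37 ± 0.25 (9.49e-12). In DFFDA_H, 11 of 24 were higher and 1 lower, with Mgst1 (1.18 ± 0.10, 2.44e-06) and glutaredoxin, Glrx (0.71 ± 0.09, 5.02e-05), leading. From NPC2 to NB1, Cbs (-2.1 ± 0.28, 1.66e-05) and Cth (-2.15 ± 0.38, 0.000525), which make cysteine from homocysteine, fell, as they did from aNSC to NPC1 (-2.0 and -1.56). From NB1 to NB2, 2 of 26 rose and 6 fell (30.8%, against 24.6% of all genes). In Other, 10 were higher and 5 lower.

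Of 14 NADPH-supplying genes, 4 rose and 5 fell from qNSC to aNSC. Malic enzyme 1, Me1, fell by 3.05 ± 0.32 (limma adjusted p = 5.33e-09), and Mthfd2, of mitochondrial folate metabolism, rose by 4.00 ± 0.42 (6.57e-09). In DFFDA_H 5 were higher and 4 lower, with Mthfd2 lower by 0.72 ± 0.10 (0.000107). From NB1 to NB2, 5 of 14 fell, Mthfd2 and Taldo1 among them, and none rose (35.7%, against 24.6% of all genes, of which 14.2% were lower). Of 14 genes of selenoprotein synthesis and selenium supply, 6 rose and 3 fell from qNSC to aNSC. The selenium carrier Selenop fell by 4.28 ± 0.25 (1.26e-13) and Selenoh, a nuclear selenoprotein, rose by 3.68 ± 0.25 (2.47e-12). In DFFDA_H Selenop was higher by 1.69 ± 0.13 (1.26e-06) and Selenoh lower by 1.05 ± 0.08 (9.98e-07), the reverse signs. In neurospheres Lrp8, a receptor for Selenop, was lower than in aNSC by 4.87 ± 0.15 (2.95e-23).

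Among 8 genes of peroxiredoxin and methionine repair, 3 rose and 4 fell from qNSC to aNSC. The sestrins Sesn3 (-2.1 ± 0.15, limma adjusted p = 7.03e-12) and Sesn1 (-1.06 ± 0.15, 1.23e-06) fell, as did sulfiredoxin, Srxn1 (-1.27 ± 0.23, 3.38e-05), which repairs overoxidised peroxiredoxins. In DFFDA_H, 4 of 8 were higher and none lower: Srxn1 by 1.04 ± 0.16 (0.00022), Sesn3 by 0.73 ± 0.10 (0.000112), Msrb2 by 0.75 and Sesn1 by 0.56. Of 9 oxidant-producing enzymes, 1 rose and 4 fell from qNSC to aNSC, with monoamine oxidases Maob (-2.82 ± 0.21, 1.62e-11) and Maoa (-1.15 ± 0.14, 5.49e-08) both lower. Of 9 genes of iron storage, haem breakdown and lipid peroxidation, 5 rose and 2 fell: ferritin light chain, Ftl1, rose by 1.74 ± 0.13 (2.02e-11), while the heavy chain, Fth1, fell by 0.66 ± 0.15 (0.000321). The remaining lists were read the same way in Other and in neurospheres. In Other, 4 of 11 NRF2 regulators were higher and 1 lower, 3 of 14 NADPH genes higher and 7 lower, and 7 of 14 selenium genes higher and 3 lower. Xdh, xanthine dehydrogenase, was higher there by 7.16 ± 0.80 (7.94e-08). In neurospheres against aNSC, 2 of 11 NRF2 regulators were higher and 6 lower, with Keap1, which marks NRF2 for breakdown, lower by 1.05 ± 0.13 (5.94e-09), and 10 of 26 genes of glutathione supply were higher and 8 lower. Between qNSC and aNSC, shares called were 72.7% (NRF2), 64.3% (NADPH and selenium), 87.5% (repair), 55.6% (oxidant) and 77.8% (iron), against 62.3% of all genes. From DFFDA_L to DFFDA_H they were 36.4% (NRF2), 50% (glutathione supply and repair) and 64.3% (NADPH and selenium), against 43.8%. In Other they were 45.5% (NRF2), 57.7% (glutathione supply) and 71.4% (NADPH and selenium), against 54.3%. In neurospheres they were 72.7% (NRF2) and 69.2% (glutathione supply), against 75%. Such shares count both directions together.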

How the data were processed

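Poly(A) RNA from 36 libraries was made into cDNA with the SMARTer Ultra Low kit, which does not mark strand, and sequenced on a NextSeq 500, per the labels' protocols. Tools named in the submitters' processing notes are HISAT2, featureCounts, limma, FastQC, Trimmomatic and cutadapt, beside the builds mm10 and GRCm38. Their versions, the annotation and any filter are not stated there. The authors deposited log2 values for 19909 genes. No header names the unit: 2 raised to them sums to 987637 to 987910 per library, and medians of 3.53 to 3.56 resemble quantile normalisation, which hides changes in total RNA. Raw counts and depth were not analysed here. A total of 1770 blank lines were dropped.

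A gene was kept if some group had 3 or more libraries with a log2 value of 0 or higher. Models with a mean per group were fitted with limma 3.58.1 under R 4.3.3, with trended and robust empirical Bayes: 28 niche libraries (17788 genes), 8 neurosphere libraries (15956) and all 36 (19158). P-values were adjusted by Benjamini-Hochberg over all genes of a fit, and a call is an adjusted p under 0.05. The fits were tested on simulated data. Prdx6b and Prdx6-ps2 did not pass the niche filter. Members and lists were chosen with earlier results of these data known. All members could be named. The rule for members described with values took the 12 with the widest range of niche means (highest mean at least 4.3), the 3 largest called changes each way and a set of core enzymes, and for each list up to 4 called genes with the smallest p. Of the 7 pathway lists, Mgst2, Sepp1, Sepw1, Cybb, Ncf4, Duox1 and Duox2 did not match a name in the table. Alternatives were library weights, other filters, a floor at 0, trimmed-mean centring, fewer groups, the replicate block and leaving out each library. Coordinates and coding sequences are from GENCODE M21 and promoters from RefSeq (pandas 2.3.3, biopython 1.88). Figures were drawn with matplotlib 3.10.9.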

Additional observations from a re-analysis of the deposited data

Results flagged for a closer look

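Among the 12 members with the widest niche range and the members' summed level, 6 of 78 groups of 4 held a library far from the other 3 by Dixon's test, where chance flags about 1 in 20 groups. Sod3 in NPC1 replicate 1 was low, at -0.4482 against 0.97 to 1.02 (log2). Gstt3 in pNSC replicate 1 was low, at 1.2179 against 4.68 to 5.00. Gstm2-ps1 in aNSC replicate 1 was low, at 2.2467 against 2.87 to 2.93. Gstt1 was low in NPC1 replicate 4, at 1.489 against 2.53 to 2.74, and in DFFDA_L replicate 1, at 6.1177 against 6.51 to 6.56. Gstm7 in NPC1 replicate 1 was high, at 4.5754 against 3.82 to 3.87.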

How the results depend on the processing

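Every count of members changed stayed within 1.5 times its value under trimmed-mean centring, without the trend and robust settings, without the filter and with values below 0 set to 0. Count models were not run, since the table holds log values. Fewer members were called in some cases: qNSC to pNSC gave 6 with only those groups and 7 with library weights, against 14; a stricter filter (mean of at least 4), which tests fewer genes, gave 29 against 44 from qNSC to aNSC and 33 against 51 for neurospheres. Library weights raised the count to 27 from 7 (aNSC to NPC1), to 27 from 8 (NPC2 to NB1), to 43 from 26 (NB1 to NB2) and to 1 from 0 (NPC1 to NPC2), and only those 2 groups gave 18 from aNSC to NPC1; the cause was not tested. Leaving out 1 library gave 6 to 17 (qNSC to pNSC), 4 to 8 (aNSC to NPC1, lowest without NPC1 replicate 1), 2 to 7 (NPC2 to NB1, lowest without NPC2 replicate 2) and 16 to 23 (NB1 to NB2, lowest without NB2 replicate 3). Txnrd3 in Other, at 0.10 in the fit as reported and not called, was -0.755 with library weights (adjusted p = 0.0372). Depth is unknown, and genes near the floor, such as Gsta3, Gstm2, Gstm3, Gstt2 and Prdx6b, have folds set in part by it.

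The replicate numbers were not taken to pair the libraries, since no label ties them. Correlations above 0.1 were nevertheless more frequent among same-numbered pairs than among others. Whether same-numbered libraries share an animal or a culture was not tested. Deviations of same-numbered niche libraries correlated at -0.182 to 0.18 (18 of 90 pairs over 0.1, against 8 of 252 with other numbers). The 4 same-numbered neurosphere pairs were at 0.028 to 0.186 (median 0.111, against -0.032 with other numbers). With the replicate block, the counts for the 10 comparisons were 17, 33, 43, 9, 0, 10, 28, 38, 33 and 52.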

Other observations

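Named pseudogenes (symbols ending in -ps with a number), counted after the members' values had been seen, were mostly higher in neurospheres than in aNSC: 178 of 220 were higher and 22 lower by limma at an adjusted p under 0.05, with a median difference of 3.58 (log2) against -0.178 for all genes. Among all genes in that comparison, 33.9% were higher and 41.1% lower. In the niche the pseudogene count from qNSC to aNSC was 66 higher and 22 lower of 144. Of all genes there, 35.3% were higher and 27.1% lower. Between DFFDA_H and DFFDA_L 36 pseudogenes were higher and 29 lower of 197, against 21.6% and 22.3% of all genes. The source of the difference in neurospheres was not tested, and culture, processing and depth cannot be told apart in it.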
